A study of Homo sapiens with 18 samples.

Results

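DNA replication and nucleotide supply genes comprised 43 genes whose products license and fire replication origins, copy DNA at the fork or make deoxynucleotides. They were chosen by symbol for roles in replication, with earlier results of these data known. All 43 were found in each of the 3 count tables, among 58336 gene identifiers. The members fell into 7 groups by role: 11 licensing genes, 6 helicase activation genes, 9 polymerase and primase genes, 6 clamp and clamp loader genes, 5 genes of strand binding and Okazaki fragment maturation, 4 nucleotide supply genes and 2 others, MCM8 and UHRF1. All 43 passed the low-count filter in every line.

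Cells copy their genome once per division. Before S phase, the origin recognition complex, CDC6 and CDT1 load the ring-shaped MCM helicase onto origins, and geminin (GMNN) blocks CDT1 afterwards. In S phase, CDC45 and the GINS complex join MCM to form the active helicase, primase and the polymerases alpha, delta and epsilon copy the strands, and ribonucleotide reductase, thymidylate synthase and thymidine kinase supply the building blocks. Transcripts of most of these genes are known to be higher in dividing cells than in resting cells, through the E2F factors.

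Transcripts were measured by RNA sequencing in TC-32, TC-71 and A673, established cell lines of Ewing sarcoma, a bone and soft tissue tumour driven by the fusion transcription factor EWSR1::FLI1. Each line was transfected with 20 nM of a control small interfering RNA (siNeg) or of one directed at FLI1 (siFLI1), a sequence found in the fusion transcript too, with 3 libraries in each of the 6 groups. All groups received a transfected RNA, no untransfected cells are included, and a single siRNA sequence stood for the depletion. Column names give 48 h for TC-71 and TC-32, and no time for A673. The labels do not say whether replicates were separate cultures, so p-values measure the spread between these libraries, which may be technical.

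The A673 libraries were the deepest, at 114564479 to 120993595 total counts, against 24102487 to 33669271 for TC-32 and 19685354 to 37234528 for TC-71. The member with the lowest count in any library was POLE2 in TC-32 and TC-71, with 37 and 181 counts, and RPA3 in A673, with 1253. Levels below are TMM-scaled CPM, reads of a gene per total reads of its library. Of the markers of the labelled tumour, FLI1, NKX2-2 and NR0B1 were present in every library, while CD99 was listed at 0 counts in all 6 TC-71 libraries against 3786 to 5102 counts in TC-32 and 26319 to 44832 in A673. PTPRC, PECAM1 and EPCAM, markers of blood, endothelium and epithelium, reached at most 2.43 CPM in any library. The annotation lists CD99 on both X and Y, the tables of TC-32 and A673 hold equal counts in both rows, and TC-71 has 0 in both. How the tool used for TC-71 treats reads that fit both copies is not given in the sources used here, so these zeros do not show that CD99 transcripts were missing. The 3 tables were made separately, so line and table cannot be told apart in any difference between lines. TC-32 and A673 share the counting tool and differ in depth. TC-32 and TC-71 overlap in depth and share the time but differ in the tool, and A673 and TC-71 differ in tool and depth. No time is given for A673, so time after transfection may differ as well in both pairs with A673.

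The targeted gene was lower in every siFLI1 library. FLI1 (ENSG00000151702.16, chromosome 11, 128686535 to 128813267 in GENCODE release 44 on GRCh38, as for all gene positions here) stood at 45.2 ± 2.46 CPM in siNeg and 22.1 ± 0.465 CPM in siFLI1 of TC-32 (SD, n = 3). The TC-71 values were 50.9 ± 2.61 and 18.3 ± 1.43 CPM, and those of A673 76.2 ± 0.733 and 17.9 ± 0.35 CPM. Reads of the fusion and of unfused FLI1 are counted together. The log2 fold changes of FLI1 were -1.03, -1.47 and -2.09 in that order of lines, so its fall was smallest in TC-32 and largest in A673 (difference 1.08 (SE 0.0788, edgeR adjusted p = 4.11e-14)).

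Replication genes fell in all 3 lines, by the most in TC-32 and by the least in A673. In TC-32, 43 of 43 members were lower in siFLI1 at a Benjamini-Hochberg adjusted p under 0.05 (edgeR quasi-likelihood test), where 40.1% of the 16227 genes tested were lower and 81.4% changed in either direction. In TC-71 it was also 43 of 43, where 35% of 17085 genes were lower and 71.9% changed. In A673, 40 members were lower and 0 higher, where 35.4% of 18444 genes were lower, 35.6% higher and 71% changed. The 3 not past the threshold in A673 were PRIM2, RPA2 and UHRF1, and they were lower in both other lines. The median log2 fold change of the members was -2.87 for TC-32, -1.79 for TC-71 and -0.73 for A673, beside 0.022, 0.018 and -0.0066 for all genes tested. At the median the members thus stood at 13.6%, 28.9% and 60.2% of their siNeg level.

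At least 2-fold falls numbered 41 for TC-32, 39 for TC-71 and 6 for A673, where 15.6%, 9.38% and 9.87% of all genes tested passed both the test and this fold. The A673 genes were GINS1, GINS4, PRIM1, LIG1, TYMS and TK1. In the ranking of all genes by log2 fold change, the median member had 2.01% of the tested genes below it for TC-32, 3.04% for TC-71 and 14.6% for A673. The 3 siFLI1 libraries lay outside the range of the 3 siNeg libraries for 43, 43 and 41 members, against 82.6%, 73.8% and 73.6% of all genes tested. PRIM2 and UHRF1 were the members whose groups overlapped in A673. An exact permutation test of 3 libraries against 3 cannot go below 0.10, so the calls rest on the fit across all genes.

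**Figure D1:**
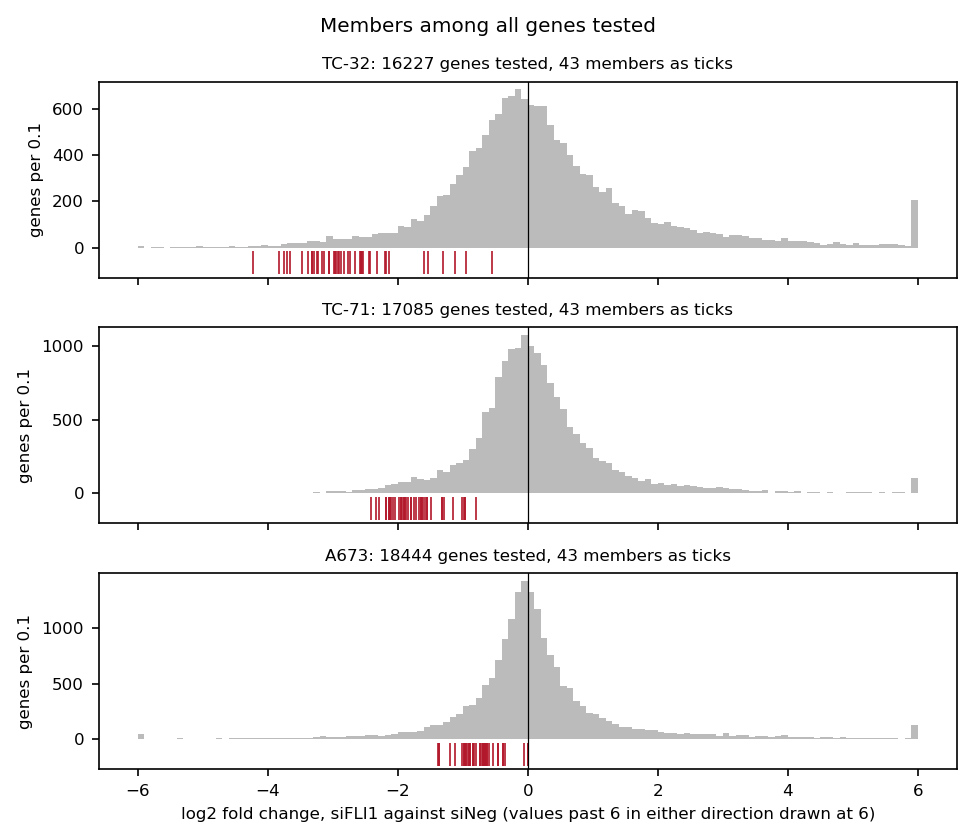
Histograms of the log2 fold change (siFLI1 against siNeg) of all genes tested in each line, in bins of 0.1, with the 43 members as red ticks below and values past 6 drawn at 6. The ticks span -4.22 to -0.54 for TC-32 and -2.41 to -0.80 for TC-71. For A673 they span -1.39 to 0.0051 and reach into the centre of the distribution.

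Summed over all 43 members, the level in TC-32 was 6271, 6302 and 6364 CPM in the siNeg libraries and 1077, 1053 and 1055 in the siFLI1 libraries. In TC-71 the sums were 6328, 6080 and 6190 against 2104, 1839 and 1859 CPM. In A673 they were 6288, 6265 and 6222 against 3719, 3762 and 3733 CPM. The siNeg sums were close together in the 3 lines, the siFLI1 sums did not overlap between lines, and no siFLI1 sum reached a siNeg sum. Since the scaling was fitted within each line, sums of different lines compare only roughly. In these bulk samples, fewer replicating cells and less RNA per cell cannot be told apart.

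By role, helicase activation genes had the lowest median log2 fold change in TC-32 and TC-71 (-3.57 and -2.14), and nucleotide supply genes the lowest in A673 (-1.04). Helicase activation genes stood at -0.91 in A673. The medians of licensing genes were -2.98, -1.89 and -0.68 for TC-32, TC-71 and A673, those of polymerases and primase -2.57, -1.58 and -0.66, and those of the clamp and its loader -2.54, -1.72 and -0.65. Strand binding and Okazaki fragment genes had the smallest medians of all roles in TC-32 and TC-71 (-2.14 and -1.14) and -0.71 in A673. Nucleotide supply genes stood at -3.17 in TC-32 and -1.85 in TC-71. The difference between roles is a description, without a test, since the members share libraries and were chosen with results known. Summed CPM gave a like picture in TC-32 and TC-71. Helicase activation fell to 9.82%, 22.7% and 51.4% of siNeg in TC-32, TC-71 and A673. Strand binding and Okazaki genes fell to 30.9%, 42.1% and 63.3%. In A673 the latter fell more than licensing, polymerase and clamp genes at the median. By summed CPM they fell less than these, which stood at 60.6%, 61.4% and 60.2%.

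**Figure D2:**
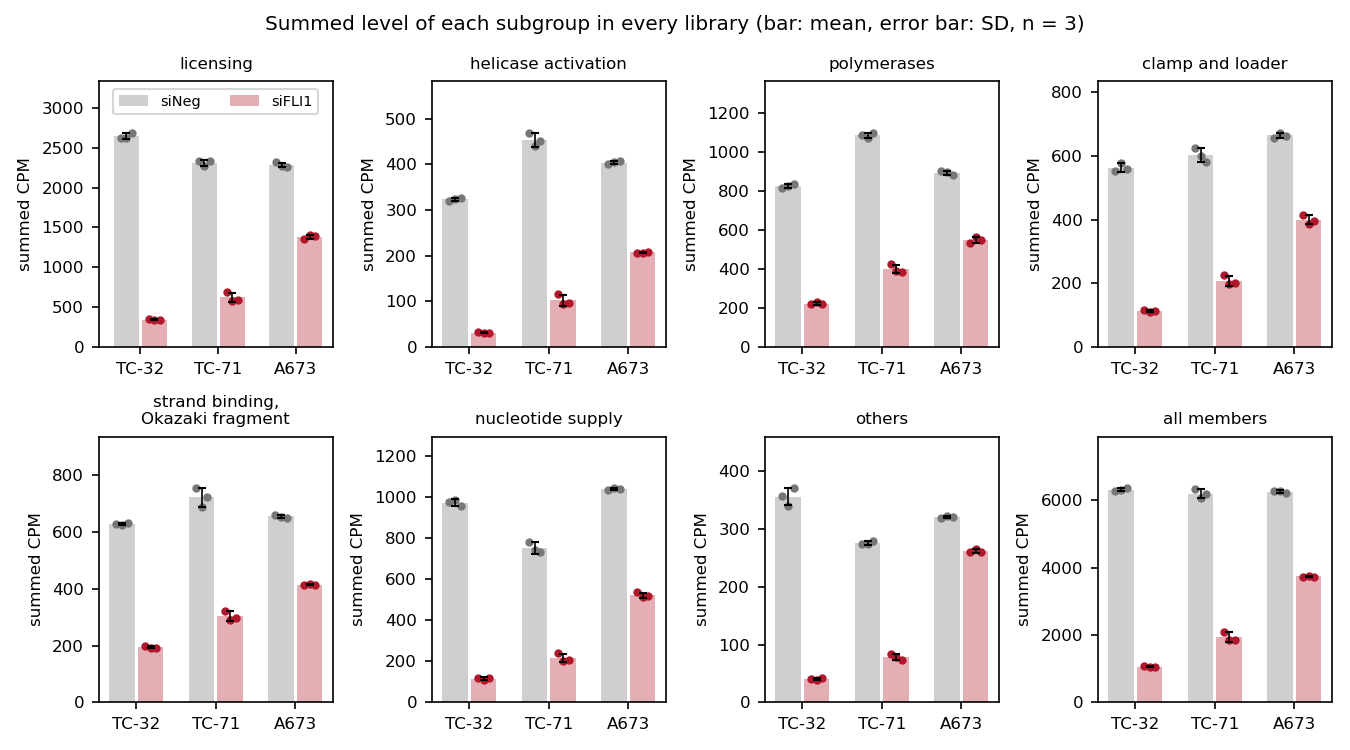
Summed CPM of the members of each role and of all members in every library (points), with the mean (bar, from 0) and SD (error bar, n = 3) per group, siNeg in grey and siFLI1 in red. In each panel all siFLI1 points lie below all siNeg points of the same line, and the red bars rise from TC-32 over TC-71 to A673.

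Promoter sequences were read for the members to show what stretch precedes genes with a large and with a small fall. Of the 43 members, 37 matched RefSeq (GRCh38.p14) by symbol, and the 250 bases before each annotated start were searched on both strands. The E2F words were TTTGGCGC, TTTCCCGC, TTTGCCGC and TTTCGCGC, which can overlap each other, since TTTGGCGCGAAA holds one on each strand. An E2F word was present for 14 of 37 members (37.8%), against 3.4% of 27305 genes with such windows. A gene counted if the window of any of its starts held the word, and 9 members had more than 1 start. PCNA and GMNN held an E2F word only at a start 6664 and 476 bases from that of the MANE Select transcript. CCAAT, the NF-Y word, was present for 24 members (64.9%, against 37%), TTTGAA, the cell cycle homology region word, for 1 (2.7%, against 16.1%), and GGAAGTG, an ETS family word, for 6 (16.2%, against 11.2%). Base composition was not matched in these shares, and a match is a description, not a binding site. The 6 windows printed run 5′ to 3′ on the gene's strand and end at the base before the start, with capitals at E2F, CCAAT and ETS words on either strand. CDT1, MCM6 and GINS2 hold E2F words and ranked 8, 14 and 7 of the 43 members from the largest fall in TC-32. MCM6 ranked only 30 in TC-71 and 33 in A673. POLE and LIG1, not printed, hold an E2F word too and ranked 38 and 36 in TC-32, so the printed windows are examples and no sample of the members. MCM10 had the largest fall in TC-32 and holds CCAAT but no E2F word. RFC1 and PRIM2 were among the members with the smallest falls in TC-32 and TC-71 and hold no E2F word.
CDT1 chr16:88803539-88803788 (+ strand): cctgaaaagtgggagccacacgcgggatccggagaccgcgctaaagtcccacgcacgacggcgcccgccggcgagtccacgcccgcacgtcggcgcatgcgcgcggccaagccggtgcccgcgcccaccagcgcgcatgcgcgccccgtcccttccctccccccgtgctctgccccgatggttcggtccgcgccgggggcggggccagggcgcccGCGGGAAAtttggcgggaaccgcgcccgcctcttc
MCM6 chr2:135876444-135876693 (- strand): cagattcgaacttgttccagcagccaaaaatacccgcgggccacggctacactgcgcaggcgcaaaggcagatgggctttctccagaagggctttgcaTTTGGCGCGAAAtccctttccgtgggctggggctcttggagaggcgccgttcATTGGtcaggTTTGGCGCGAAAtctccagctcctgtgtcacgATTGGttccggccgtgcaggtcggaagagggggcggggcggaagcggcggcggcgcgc
GINS2 chr16:85688955-85689204 (- strand): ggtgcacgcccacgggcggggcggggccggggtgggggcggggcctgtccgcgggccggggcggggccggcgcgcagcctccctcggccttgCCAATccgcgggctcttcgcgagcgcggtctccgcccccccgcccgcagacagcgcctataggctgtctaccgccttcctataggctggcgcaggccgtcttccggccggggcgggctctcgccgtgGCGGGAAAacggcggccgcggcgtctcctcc
MCM10 chr10:13161308-13161557 (+ strand): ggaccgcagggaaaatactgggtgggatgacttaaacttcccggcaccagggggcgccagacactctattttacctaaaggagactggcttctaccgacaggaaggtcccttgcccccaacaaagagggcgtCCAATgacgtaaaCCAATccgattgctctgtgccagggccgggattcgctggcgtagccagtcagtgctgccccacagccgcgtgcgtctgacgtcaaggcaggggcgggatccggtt
RFC1 chr4:39366363-39366612 (- strand): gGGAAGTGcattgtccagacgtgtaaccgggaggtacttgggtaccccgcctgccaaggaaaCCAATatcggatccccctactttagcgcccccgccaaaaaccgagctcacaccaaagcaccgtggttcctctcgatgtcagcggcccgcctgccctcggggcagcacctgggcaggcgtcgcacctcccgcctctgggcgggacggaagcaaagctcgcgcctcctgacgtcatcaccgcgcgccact
PRIM2 chr6:57317380-57317629 (+ strand): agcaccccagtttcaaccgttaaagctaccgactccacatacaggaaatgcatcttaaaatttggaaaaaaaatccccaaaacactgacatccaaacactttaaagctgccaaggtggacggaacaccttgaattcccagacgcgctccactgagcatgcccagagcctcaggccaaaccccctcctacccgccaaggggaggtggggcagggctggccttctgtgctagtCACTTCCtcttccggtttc

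By GENCODE, the first 4 windows hold 0 exon bases, and those of RFC1 and PRIM2 hold 13 and 6. The E2F word lies 35 bases before the start in CDT1 and 31 in GINS2. MCM6 holds 4 such words in 2 stretches, the farther at 152 bases before the start. RFC1 has an ETS word and a CCAAT, and PRIM2 has an ETS word close to its start. The size of the fall did not divide along the searched E2F words. Members with and without one had median log2 fold changes of -2.96 and -2.87 in TC-32. The medians were -1.78 and -1.89 in TC-71 and -0.82 and -0.71 in A673. Only exact matches counted, so members without one may hold other E2F forms. CDC45 and CDC6, for example, have tttggcggg in a window and were counted as without. Whether the fall relates to E2F sites was not tested. Besides CDT1, MCM6 and GINS2, the members with a searched E2F word were LIG1, MCM3, MCM7, PCNA, POLA1, POLA2, POLE, RFC3, TYMS, GMNN and UHRF1.

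All 11 licensing genes were lower in each line. ORC1 (ENSG00000085840.12, chromosome 1, 52372829 to 52404423) encodes the largest subunit of the origin recognition complex. Its levels in TC-32 were 82.8, 80.9 and 80.7 CPM in siNeg and 8.97, 8.82 and 8.32 CPM in siFLI1. In A673 they were 88.9, 86.9 and 86.3 against 43.3, 44.4 and 44.5 CPM. The groups did not overlap in any line, and ORC1 kept 10.7% of its siNeg mean for TC-32, 21.9% for TC-71 and 50.4% for A673 (log2 fold changes -3.23, -2.19 and -0.99). ORC6, the smallest subunit, fell as well, with -2.82, -1.89 and -0.47.

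CDC6 (ENSG00000094804.9, chromosome 17, 40287879 to 40304657), the ATPase that joins the origin recognition complex to load the helicase, showed the largest gap between TC-32 and A673 of all members. In TC-32 its levels were 112, 114 and 112 CPM in siNeg and 10.0, 7.58 and 9.51 in siFLI1 (log2 fold change -3.65, SE 0.0738, edgeR adjusted p = 5.89e-23). In A673 they were 84.1, 82.5 and 81.8 against 65.5, 61.7 and 62.8 CPM (log2 fold change -0.39, SE 0.0396, edgeR adjusted p = 2.23e-07). A673 kept 76.5% of its CDC6 transcript and TC-32 7.96%, and the difference of the log2 fold changes was -3.24 (SE 0.0895, edgeR adjusted p = 1.37e-25). In TC-71, CDC6 stood at 25.2% of siNeg.

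CDT1 (ENSG00000167513.8, chromosome 16, 88803789 to 88809258), the loading factor whose promoter is printed above, had the largest fall of all members in TC-71. The TC-71 libraries held 98.0, 101 and 102 CPM in siNeg and 21.8, 18.5 and 16.7 CPM in siFLI1 (log2 fold change -2.41, SE 0.0688, edgeR adjusted p = 1.27e-21). In TC-32 the levels were 66.8, 68.6 and 78.1 against 7.40, 6.83 and 7.11 CPM, and CDT1 kept 9.98% of its siNeg mean there, 18.8% in TC-71 and 51.1% in A673. GMNN, its inhibitor, fell less, with log2 fold changes of -2.77, -1.55 and -0.69. The ratio of CDT1 to GMNN, each per kilobase of the MANE Select transcript, moved from 0.574, 0.513 and 0.667 in the siNeg libraries of TC-32 to 0.391, 0.399 and 0.395 in siFLI1. In TC-71 it moved from 0.592, 0.638 and 0.665 to 0.389, 0.369 and 0.298. In A673 it was 0.377, 0.347 and 0.372 against 0.263, 0.342 and 0.302. The ratio was lower in every siFLI1 library than in every siNeg library of the same line.

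MCM2 to MCM7 form the helicase ring, 1 copy of each, and all 6 transcripts fell in each line. MCM4 had the largest fall of the 6 in TC-32, from 539, 541 and 551 to 56.9, 56.5 and 54.4 CPM (log2 fold change -3.28, SE 0.0438, edgeR adjusted p = 2.11e-26). MCM2 fell the most in TC-71, from 287, 268 and 287 to 72.5, 56.4 and 57.3 CPM (log2 fold change -2.18, SE 0.0735, edgeR adjusted p = 3.3e-14), though an opposite-strand gene shares 23.6% of its exon bases. In A673 it was MCM7, from 543, 516 and 506 to 265, 289 and 283 CPM (log2 fold change -0.90, SE 0.0406, edgeR adjusted p = 6.27e-12). The groups of each of these comparisons were far apart. The 6 log2 fold changes ran from -3.28 to -2.57 for TC-32, from -2.18 to -1.60 for TC-71 and from -0.90 to -0.62 for A673, so the member that fell the least in TC-32, MCM7, was the one that fell the most in A673.

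Per kilobase of transcript, MCM7 had the highest level of the 6 in every group. In TC-32 siNeg it stood at 268 CPM per kilobase, 5.04 times the lowest, MCM5 at 53.2, and in siFLI1 at 45.1, 6.44 times MCM5 at 7.004. In TC-71 the ratio of the highest to the lowest of the 6 was 2.36 in siNeg, over MCM6, and 2.54 in siFLI1, over MCM2. In A673 it was 3.36 in siNeg, over MCM6, and 2.82 in siFLI1, over MCM5. These ratios of group means were thus higher after siFLI1 in TC-32, slightly higher in TC-71 and lower in A673. The lowest gene changed in TC-71 and A673, and the ratios were not tested.

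All 6 helicase activation genes were lower in each line. MCM10 (ENSG00000065328.16, chromosome 10, 13161558 to 13211110), which is needed to start the assembled helicase, had the largest fall of all 43 members in TC-32. It was at 75.8, 78.1 and 78.8 CPM in siNeg and 4.79, 3.36 and 4.43 CPM in siFLI1, a fall to 5.35% (log2 fold change -4.22, SE 0.0863, edgeR adjusted p = 4.78e-23). TC-71 had 100.4, 95.4 and 96.8 against 22.4, 18.01 and 17.7 CPM. A673 had 101, 102 and 103 against 50.6, 52.4 and 50.9 CPM, or 50.4% of siNeg. In siFLI1 the lines formed separate ranges, in the order TC-32, TC-71 and A673 from low to high. The siNeg ranges lay closer together in ratio, and those of TC-71 and A673 nearly met, at 100.4 and 101 CPM. Scaling was fitted within each line and TC-71 was counted with another tool, so the siNeg values do not settle an order of these 2 lines.

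CDC45, the factor that couples MCM to GINS in the moving helicase, kept 7.03% of its siNeg level in TC-32, with 53.7, 53.1 and 54.9 against 3.64, 3.65 and 4.06 CPM (log2 fold change -3.83, SE 0.0797, edgeR adjusted p = 5.69e-23). Its log2 fold changes in TC-71 and A673 were -2.30 and -0.84. GINS1 (ENSG00000101003.9, chromosome 20, 25391008 to 25452700) had the largest fall of all members in A673, with 92.1, 94.7 and 95.6 CPM in siNeg and 37.6, 34.3 and 36.1 in siFLI1 (log2 fold change -1.39, SE 0.0436, edgeR adjusted p = 6.14e-14). In TC-32 it stood at 78.8, 79.5 and 76.6 against 5.86, 5.76 and 5.75 CPM. GINS1 was thus low in every siFLI1 library of each line, with no overlap. The other GINS subunits moved unevenly: the log2 fold changes in TC-32, TC-71 and A673 were -3.38, -2.14 and -0.74 for GINS2, -2.74, -1.30 and -0.46 for GINS3 and -2.32, -2.14 and -1.01 for GINS4. For GINS3 and GINS4, 10.9% and 23.4% of the exon bases also belong to an opposite-strand gene.

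**Figure D3:**
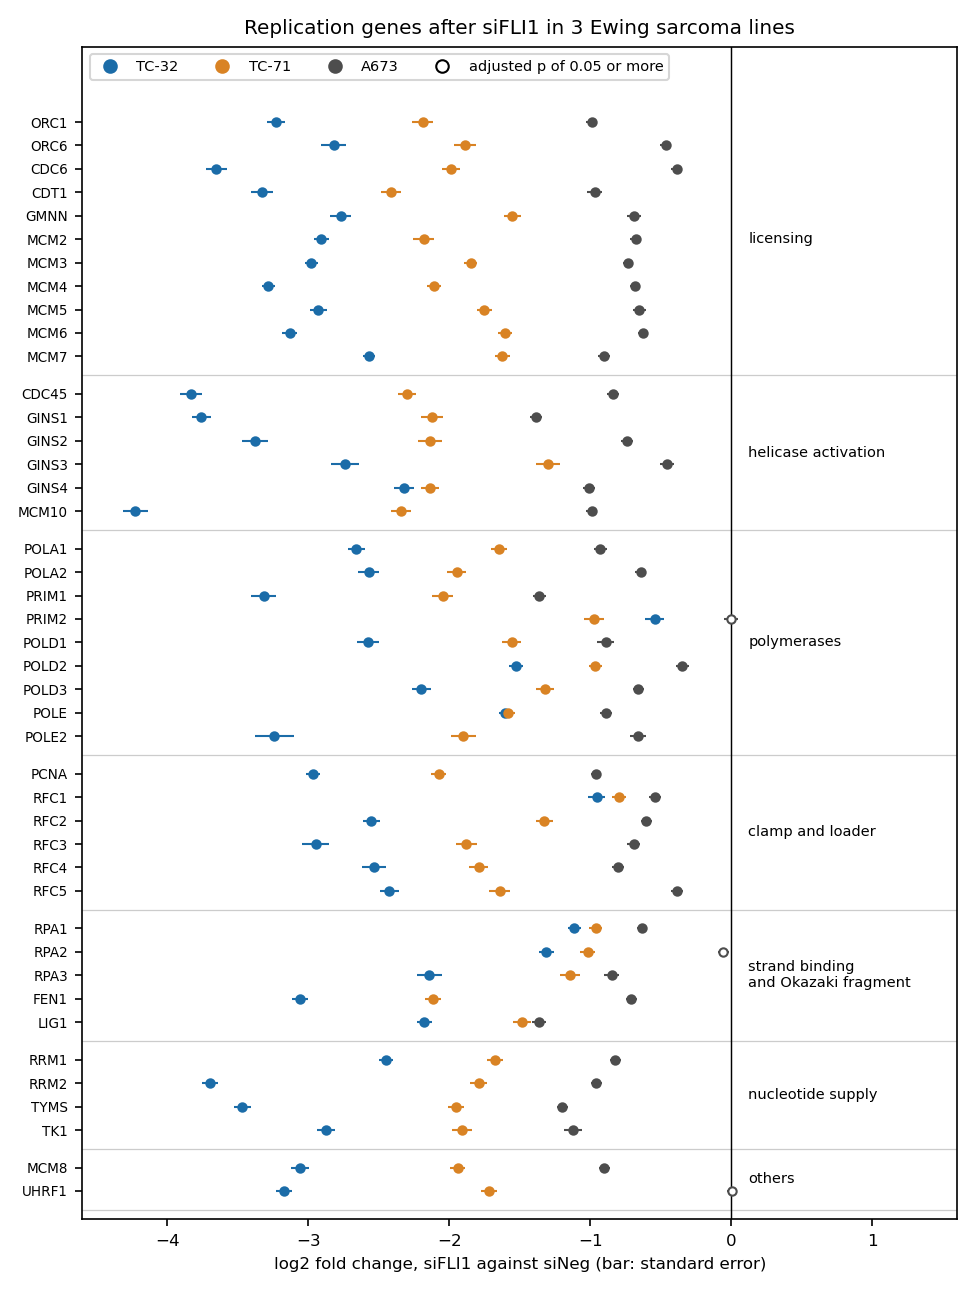
Log2 fold change (siFLI1 against siNeg) with its standard error for each of the 43 members, in rows grouped by role, with TC-32 in blue, TC-71 in orange and A673 in grey and open points for an adjusted p of 0.05 or more. Blue points lie farthest left and grey points nearest 0 in 42 of 43 rows, PRIM2 being the exception, and the 3 open points are PRIM2, RPA2 and UHRF1 in A673.

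Of the 9 polymerase and primase genes, all 9 were lower in TC-32 and TC-71 and 8 in A673. POLA1, the catalytic subunit of polymerase alpha that extends primers, fell from 81.9, 85.3 and 84.7 to 13.1, 12.7 and 14.1 CPM in TC-32 and had log2 fold changes of -2.66, -1.65 and -0.93 in the 3 lines. POLA2, its second subunit, had -2.57, -1.95 and -0.64, and 16.8% of its exon bases also belong to a same-strand gene. The primase subunits differed in how much they changed. PRIM1 (ENSG00000198056.13, chromosome 12, 56730438 to 56752374), the catalytic subunit, was among the members that fell most in A673, from 49.7, 50.9 and 49.8 to 20.5, 18.6 and 19.4 CPM (log2 fold change -1.36, SE 0.0461, edgeR adjusted p = 1.62e-13), and had -3.32 in TC-32 and -2.05 in TC-71. For PRIM1, 15.1% of the exon bases also belong to a same-strand gene.

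PRIM2 (ENSG00000146143.17, chromosome 6, 57314805 to 57646850), the large regulatory primase subunit, had the smallest fall of all members in TC-32. Its levels there were 34.3, 37.7 and 32.8 CPM in siNeg and 24.1, 22.7 and 25.3 CPM in siFLI1 (log2 fold change -0.54, SE 0.0692, edgeR adjusted p = 1.21e-07). In TC-71 they were 35.5, 35.9 and 32.8 against 17.3, 17.8 and 17.8 CPM (log2 fold change -0.97, SE 0.0688, edgeR adjusted p = 1.79e-13). In A673 they were 36.0, 37.0 and 35.5 against 37.8, 34.0 and 36.6 CPM (log2 fold change -0.0025, SE 0.047, edgeR adjusted p = 0.967). The A673 groups overlapped, while those of both other lines did not. PRIM2 was the 1 member that fell more in TC-71 than in TC-32, by a difference of 0.42 (SE 0.0915, edgeR adjusted p = 0.000178). In the siNeg libraries PRIM2 stood at like levels in the 3 lines, 34.95 ± 2.52, 34.7 ± 1.70 and 36.2 ± 0.778 CPM (SD, n = 3).

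Polymerase delta, which copies the lagging strand, has POLD1 as its catalytic subunit. POLD1 fell from 119, 108 and 127 to 17.1, 21.6 and 20.4 CPM in TC-32 (log2 fold change -2.58, SE 0.077, edgeR adjusted p = 3.47e-16), and the log2 fold changes in TC-71 and A673 were -1.56 and -0.89. POLD2, the subunit that bridges POLD1 and POLD3, fell less in each line, with -1.53, -0.97 and -0.35. The ratio of POLD2 to POLD1 per kilobase therefore rose in siFLI1, from 2.97, 3.29 and 2.86 to 7.11, 6.08 and 5.82 in TC-32. In TC-71 it went from 5.85, 5.29 and 5.47 to 7.68, 8.45 and 8.93, and in A673 from 6.75, 6.73 and 6.49 to 9.77, 9.26 and 10.1. No siFLI1 ratio was as low as a siNeg ratio of its line. POLD3 had log2 fold changes of -2.20, -1.32 and -0.66.

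Polymerase epsilon copies the leading strand. POLE, its catalytic subunit, fell by almost the same amount in TC-32, from 238, 230.9 and 244 to 75.6, 82.5 and 76.8 CPM, and in TC-71, from 354, 354 and 368 to 128, 116 and 115 CPM. The log2 fold changes were -1.60 and -1.58, and in A673 -0.89. The test found no difference between TC-32 and TC-71 for POLE, -0.03 (SE 0.0657, edgeR adjusted p = 0.801), and the sign of this difference turned under other scalings. POLE2, the second subunit, fell much more in TC-32, from 12.2, 15.2 and 13.0 to 1.42, 1.22 and 1.66 CPM (log2 fold change -3.24, SE 0.14, edgeR adjusted p = 1.24e-16), at the lowest counts of all members. Per kilobase, POLE2 to POLE went from 0.237, 0.304 and 0.246 to 0.0867, 0.0683 and 0.0998 in TC-32 and from 0.396, 0.406 and 0.342 to 0.313, 0.276 and 0.324 in TC-71. In A673 the ratio was 0.332, 0.352 and 0.37 in siNeg and 0.457, 0.363 and 0.418 in siFLI1, where the groups overlapped.

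The clamp and loader genes were lower in all 3 lines, 6 of 6 in each. PCNA (ENSG00000132646.10, chromosome 20, 5114953 to 5126626), the sliding clamp that tethers the polymerases, had 235, 245.9 and 236 CPM in siNeg and 31.7, 30.1 and 30.2 in siFLI1 of TC-32 (log2 fold change -2.96, SE 0.0495, edgeR adjusted p = 1.13e-24). The TC-71 libraries had 201, 203 and 187 against 50.5, 43.8 and 46.3 CPM. Those of A673 had 254, 259.9 and 258 against 138, 127 and 133 CPM, or 51.5% of siNeg. PCNA was separated by siRNA in each line and had the lowest log2 fold change of the 6, with RFC3 close behind it in TC-32.

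RFC1 to RFC5 form the loader that opens PCNA, and RFC1 is its large subunit. RFC1 (ENSG00000035928.15, chromosome 4, 39287456 to 39366375) had the smallest fall of all members in TC-71, with 120.1, 112 and 112 CPM in siNeg and 68.0, 63.8 and 65.9 in siFLI1 (log2 fold change -0.80, SE 0.0497, edgeR adjusted p = 9.83e-15). In TC-32 it was 81.9, 81.6 and 75.6 against 44.4, 38.6 and 40.6 CPM (log2 fold change -0.95, SE 0.0591, edgeR adjusted p = 1.96e-13). In A673 it was 114, 120.9 and 117 against 85.0, 77.0 and 79.7 CPM (log2 fold change -0.54, SE 0.0435, edgeR adjusted p = 1.11e-08). The groups were apart in all 3 lines. RFC2 to RFC5, the small subunits, had log2 fold changes from -2.95 to -2.42 for TC-32, from -1.88 to -1.33 for TC-71 and from -0.80 to -0.39 for A673. RFC1 fell less than each of them in TC-32 and TC-71 and lay within their range in A673. Per kilobase, RFC3 to RFC1 went from 0.745, 0.852 and 0.895 to 0.18, 0.203 and 0.243 in TC-32 and from 1.09, 1.12 and 1.10 to 0.584, 0.495 and 0.49 in TC-71. In A673 it went from 1.55, 1.49 and 1.51 to 1.39, 1.38 and 1.33, a much smaller change, with no overlap in any line. In RFC5, 10.7% of the exon bases also belong to an opposite-strand gene.

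Of the 5 genes of strand binding and Okazaki fragment maturation, all 5 were lower in TC-32 and TC-71 and 4 in A673. RPA1, RPA2 and RPA3 encode the trimer that coats single-stranded DNA in replication and in repair. RPA1 fell from 217, 224 and 217 to 106, 98.6 and 99.7 CPM in TC-32 and had log2 fold changes of -1.11, -0.96 and -0.64. RPA2 in A673 was at 95.4, 93.3 and 94.1 CPM in siNeg and 92.8, 88.5 and 90.5 in siFLI1 (log2 fold change -0.057, SE 0.0374, edgeR adjusted p = 0.183). These groups did not overlap but lay close together, and scaling to library size alone gave -0.1603 with an edgeR adjusted p of 0.00108. In TC-32 and TC-71, RPA2 had -1.31 and -1.02. RPA3 fell more than its partners, with -2.14, -1.14 and -0.85, and RPA3 to RPA1 per kilobase went from 0.252, 0.24 and 0.24 to 0.117, 0.13 and 0.112 in TC-32. In A673 it went from 0.184, 0.187 and 0.191 to 0.166, 0.158 and 0.162, a smaller change without overlap. In TC-71 it was 0.352, 0.367 and 0.315 against 0.313, 0.275 and 0.318, where the groups overlapped.

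FEN1, the nuclease that trims the flaps of Okazaki fragments, fell from 155, 145 and 152 to 18.2, 17.4 and 18.7 CPM in TC-32 (log2 fold change -3.06, SE 0.0561, edgeR adjusted p = 5.62e-24), with -2.11 in TC-71 and -0.71 in A673. LIG1, the ligase that seals them, fell by like amounts in TC-71 and A673. It was among the 3 members that fell most in A673, from 120.6, 113 and 115 to 41.7, 48.5 and 45.4 CPM (log2 fold change -1.36, SE 0.0514, edgeR adjusted p = 6.39e-13), and had -2.18 in TC-32. In TC-71 its levels were 65.7, 60.8 and 60.4 against 23.4, 20.5 and 22.9 CPM (log2 fold change -1.48, SE 0.0635, edgeR adjusted p = 1.14e-18). LIG1 was the 1 member for which the test found no difference between A673 and TC-71, 0.09 (SE 0.082, edgeR adjusted p = 0.397).

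All 4 nucleotide supply genes were lower in each line. RRM1 and RRM2 are the large and small subunits of ribonucleotide reductase, which makes deoxynucleotides. RRM2 (ENSG00000171848.14, chromosome 2, 10120698 to 10211725) fell in TC-32 from 386, 397 and 379.6 to 31.7, 27.1 and 31.1 CPM (log2 fold change -3.70, SE 0.0551, edgeR adjusted p = 1.81e-25). TC-71 libraries held 119, 117 and 104 against 35.4, 31.6 and 31.4 CPM, and A673 libraries 352, 362 and 354 against 193, 176 and 182 CPM. The siNeg level of RRM2 was much lower in TC-71 than in the other lines. RRM2 and UHRF1 were the 2 members with fractional expected counts in all 12 libraries of TC-32 and A673, which arise when reads are divided between genes. TC-71 was counted with another tool, so the line and the tool cannot be told apart for this level.

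RRM1 fell from 314, 314 and 300.1 to 59.7, 53.1 and 57.5 CPM in TC-32 and had log2 fold changes of -2.45, -1.67 and -0.82. The ratio of RRM2 to RRM1 per kilobase dropped in TC-32 from 1.19, 1.22 and 1.22 to 0.513, 0.492 and 0.522. It was 1.17, 1.19 and 1.16 against 1.08, 1.05 and 1.08 in A673, a small change without overlap. In TC-71 it was 0.362, 0.374 and 0.324 against 0.317, 0.345 and 0.319, where the groups overlapped. TYMS, thymidylate synthase, had the lowest log2 fold change of the 4 in A673 (log2 fold change -1.20, SE 0.038, edgeR adjusted p = 6.78e-14), from 266, 272 and 275 to 122, 113 and 119.6 CPM. In TC-32 and TC-71 it had -3.47 and -1.95, and opposite-strand genes share 47.9% of its exon bases. TK1, which salvages thymidine, fell from 94.1, 89.7 and 94.4 to 11.5, 12.8 and 13.6 CPM in TC-32, with log2 fold changes of -2.87, -1.91 and -1.12.

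**Figure D4:**
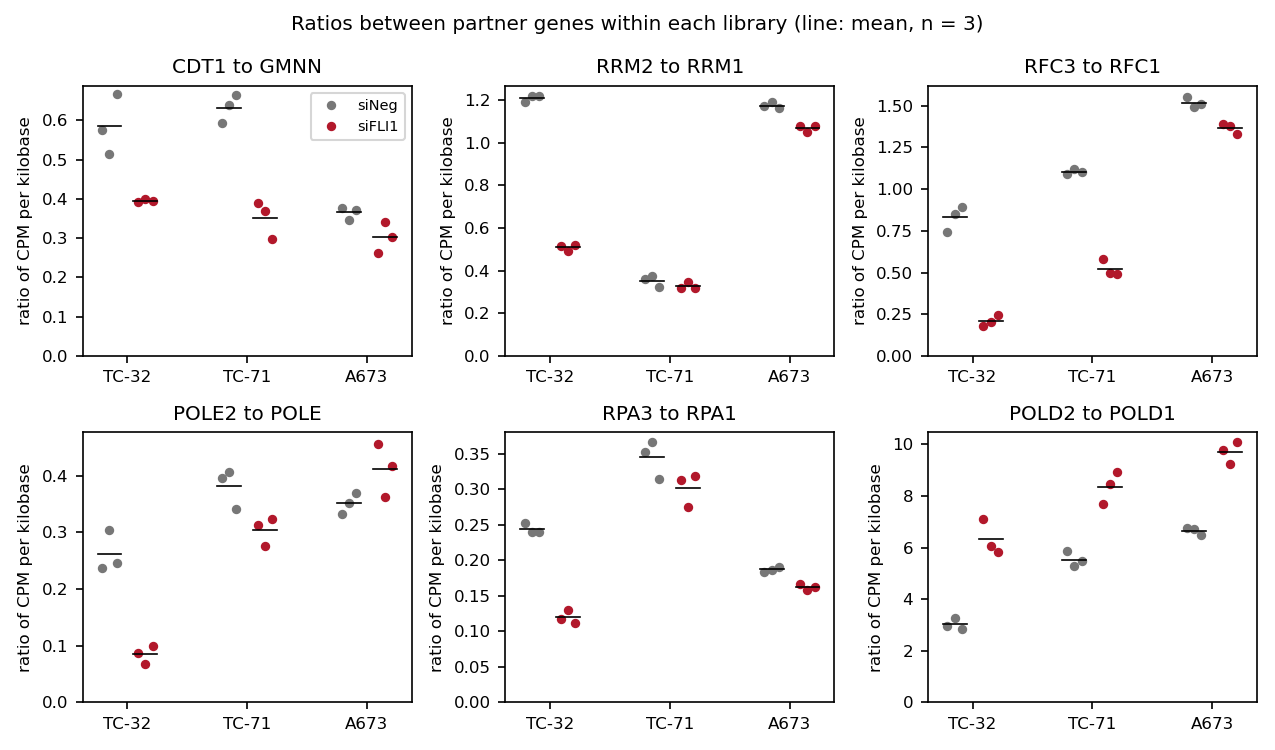
Ratio of CPM per kilobase between partner genes in every library (points; line, mean of 3), siNeg in grey and siFLI1 in red, on linear axes from 0. CDT1 to GMNN is lower and POLD2 to POLD1 higher in siFLI1 of each line without overlap, while RRM2 to RRM1 drops from 1.21 to 0.509 at the mean in TC-32 and overlaps between siRNAs in TC-71.

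MCM8, a relative of the MCM ring subunits that acts in recombination repair, fell from 104, 99.1 and 99.0 to 13.2, 11.5 and 11.7 CPM in TC-32 and had log2 fold changes of -3.05, -1.94 and -0.90. A same-strand gene shares 33.3% of its exon bases. UHRF1 (ENSG00000276043.4, chromosome 19, 4903080 to 4962154) binds hemimethylated DNA behind the fork and recruits the maintenance methyltransferase. Its levels were 254, 241 and 271 CPM in siNeg and 26.8, 28.0 and 30.2 in siFLI1 of TC-32 (log2 fold change -3.17, SE 0.0568, edgeR adjusted p = 4.38e-24). TC-71 had 152, 152 and 160.1 against 51.6, 46.9 and 43.3 CPM (log2 fold change -1.72, SE 0.0552, edgeR adjusted p = 1.65e-21). A673 had 193, 192 and 193 against 189, 199 and 192 CPM (log2 fold change 0.0051, SE 0.035, edgeR adjusted p = 0.906). The A673 libraries of both siRNAs overlapped, at a level between those of the siNeg libraries of the other lines. Scaling to library size alone gave -0.0978 with an edgeR adjusted p of 0.0199 in A673.

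**Figure D5:**
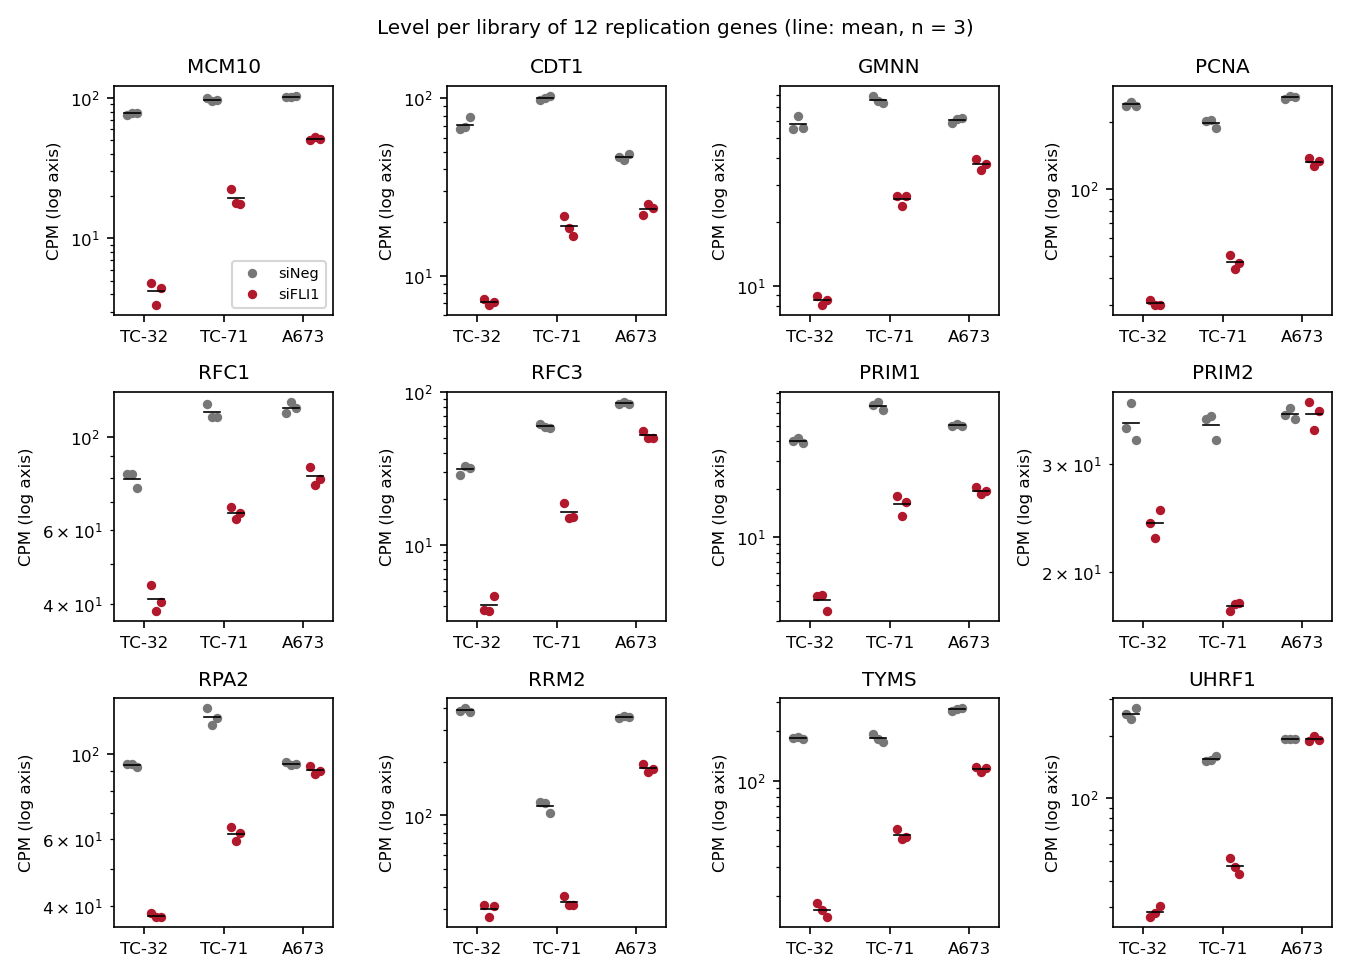
CPM of 12 members in every library (points; line, mean of 3) on log axes, siNeg in grey and siFLI1 in red. UHRF1 and PRIM2 overlap between siRNAs in A673 and RPA2 lies close together there, while MCM10 in TC-32 drops from 77.6 to 4.19 CPM at the mean.

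Interaction contrasts over 19610 genes, in one model of the 18 libraries, compared the size of the fall between lines. Against A673, TC-32 differed for 43 of 43 members, where 62.1% of all genes differed. Against TC-71, TC-32 differed for 40 members (53.6% of all genes) and A673 for 42 (51.6%). All 43 fell more in TC-32 than in A673, 39 of the 40 against TC-71 fell more in TC-32, and all 42 fell more in TC-71 than in A673. The members' median difference was -2.06 for TC-32 minus A673, -1.02 for TC-32 minus TC-71 and 0.95 for A673 minus TC-71, beside 0.015, -0.11 and -0.075 for all genes. The order of falls was TC-32, TC-71, A673 for 42 members, while FLI1 itself fell in the reverse order.

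The largest differences between TC-32 and A673 were those of CDC6 (-3.24), MCM10 (-3.21) and UHRF1 (-3.15), and the smallest that of RFC1 (-0.39). Between TC-32 and TC-71, RRM2 differed the most (-1.92 (SE 0.0809, edgeR adjusted p = 4.6e-20)). GINS4 (-0.19 (SE 0.0935, edgeR adjusted p = 0.0886)), RFC1 (-0.16 (SE 0.0768, edgeR adjusted p = 0.0701)) and POLE were not past the threshold. GINS4 passed it without any 1 of 3 libraries and RFC1 without any 1 of 4, and RPA1 (-0.16 (SE 0.0623, edgeR adjusted p = 0.0315)) lost it in 9 of its alternatives. Between A673 and TC-71, UHRF1 differed the most (1.69 (SE 0.0708, edgeR adjusted p = 2.65e-20)) and RFC1 (0.22 (SE 0.0717, edgeR adjusted p = 0.00931)) and RPA3 (0.26 (SE 0.0913, edgeR adjusted p = 0.0152)) the least of those that passed. Both were lost with scaling to library size alone and without TC-71 siNeg replicate 1, and RPA3 also without A673 siNeg replicate 1 or TC-71 siFLI1 replicate 2.

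TC-32 and TC-71 ranked the members more like each other than either ranked them like A673. Over the 43 members, the falls in TC-71 followed those in TC-32 with a Pearson's r of 0.841 and a Spearman's rho of 0.778. With A673 against TC-32 the values were 0.433 and 0.368, and with A673 against TC-71 0.485 and 0.505. These describe members that share libraries within a line, and no control library is shared between lines. Of the 6 smallest falls in each line, 3 genes were common to all lines, POLD2, PRIM2 and RPA2, and of the 6 largest falls 0 were.

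Other genes of replication, a list of 48 that holds further origin, fork, nucleotide and chromatin copying factors, moved mostly in the same direction. In TC-32, 43 of them were lower, 3 higher and 2 not past the threshold. In TC-71 it was 40, 4 and 4, and in A673 38, 5 and 5. The median log2 fold changes were -1.999, -1.30 and -0.67. All 6 factors of chromatin copying were lower in each line, as were 17, 15 and 14 of 17 origin and checkpoint factors in TC-32, TC-71 and A673. Fork factors were lower in 10, 9 and 9 of 11 cases, and nucleotide enzymes in 10, 10 and 9 of 14.

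The lowest of these in TC-32 were PCLAF, a PCNA binding protein (log2 fold change -3.79, SE 0.0634, edgeR adjusted p = 1.13e-24), and CLSPN, the checkpoint mediator claspin (-3.67). In TC-71 they were TICRR, which brings CDC45 to origins (-2.39), and DSCC1, a subunit of an alternative clamp loader (-2.24). In A673 CHAF1B, a histone chaperone subunit, was among the lowest (-1.27). The edgeR adjusted p of the genes given without it was at most 4.26e-14. Same-strand genes share 29.3% of the exon bases of PCLAF and 21.3% of those of POLD4, and opposite-strand genes 15.6% of those of TK2.

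Those with the highest log2 fold changes were TK2 and POLD4 in TC-32 and TC-71 and SAMHD1 and DCTD in A673. TK2, the mitochondrial thymidine kinase, rose in TC-32 from 11.9, 13.9 and 12.2 to 25.6, 28.7 and 27.8 CPM (log2 fold change 1.11, SE 0.0793, edgeR adjusted p = 3.25e-12) and in TC-71 (0.41, edgeR adjusted p = 2.53e-05), and had -0.039 in A673 (edgeR adjusted p = 0.535). POLD4, the smallest subunit of polymerase delta, rose in TC-32 (1.06) and TC-71, there from 4.68, 5.32 and 4.44 to 19.5, 21.4 and 19.6 CPM (log2 fold change 2.08, SE 0.0982, edgeR adjusted p = 1.26e-17), and was lower in A673 (-0.26, edgeR adjusted p = 0.0066). SAMHD1, which degrades deoxynucleotides, rose in A673 from 15.6, 15.8 and 15.1 to 31.9, 30.2 and 30.6 CPM (log2 fold change 1.00, SE 0.0466, edgeR adjusted p = 1.06e-11) and in TC-32 (0.40). Its TC-71 groups overlapped (log2 fold change 0.014, edgeR adjusted p = 0.851). DCTD, which deaminates dCMP toward thymidylate, rose in A673 (log2 fold change 0.79, SE 0.0374, edgeR adjusted p = 1.34e-11) and in TC-71 (0.19, edgeR adjusted p = 0.00212), and had 0.097 in TC-32 (edgeR adjusted p = 0.127). All these groups were apart in the lines with a rise, and the differences between lines were not tested for this list.

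Of 18 cell cycle regulators and proliferation markers listed for context, 16 were lower and 2 higher in TC-32, 14 lower and 1 higher in TC-71 and 14 lower and 2 higher in A673. Among all genes tested, 40.1%, 35% and 35.4% were lower in that order of lines, and 81.4%, 71.9% and 71% changed in either direction. MKI67, the proliferation marker, had log2 fold changes of -3.13, -1.72 and -1.32 and E2F1, an activator of replication genes, -3.79, -2.30 and -1.12. CDKN1A, the inhibitor of cyclin-dependent kinases known as p21, was higher in each line. Its levels were 34.0, 34.9 and 36.7 CPM in siNeg and 311, 332 and 312 in siFLI1 of TC-32 (log2 fold change 3.18, SE 0.0504, edgeR adjusted p = 4.3e-25), with 2.25 in TC-71 and 1.06 in A673. The rise of CDKN1A was thus largest where the replication genes fell the most, a description over 3 lines. CCNE1, the cyclin of S phase entry, was lower in TC-32 (-1.80) and higher in A673 (0.79), and CCNE2 in A673 had 0.044 and was not past the threshold. Whether these genes have a part in the fall of the members was not tested.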

How the data were processed

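Messenger RNA was sequenced from 18 libraries of 3 Ewing sarcoma lines, 3 siNeg and 3 siFLI1 each, with a stranded kit per the labels. By the table names, the expected counts that the authors deposited of A673 and TC-32 are from RSEM, and the counts that the authors deposited of TC-71 are from Subread. Cutadapt 4.4, STAR 2.7.3, featureCounts, Subread 2.0.3 and limma 3.38.3 and the build GRCh38 (hg38) are named in the submitters' processing notes, without roles. Whether counting used strand is not given in the sources used here. The column names of TC-32 and TC-71 do not carry the line, which rests on the table name. A further line and siRNA that the series names are not analysed here.

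Expected counts were rounded. Each line was fitted alone in edgeR 4.0.16 (R 4.3.3) with filterByExpr, TMM scaling, robust dispersions and the quasi-likelihood F-test, adjusted by Benjamini-Hochberg over all genes tested, and called at 0.05. Every adjusted p is from edgeR. Log2 fold changes carry a prior count of 0.125. Interactions were contrasts in one model of the 6 groups. In pairwise comparisons, the differences between replicates were above sampling noise throughout. Total counts of 19685354 to 120993595 set the precision, and reads carry no molecular identifiers. Positions and MANE Select lengths came from GENCODE release 44, promoters from RefSeq. Scripts were tested on simulated data.

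The members, the lists and the subgroups were chosen with earlier results of these data known. All 43 members are named, with values per library for those with the lowest and highest log2 fold change in each line and the first of each complex, and of the 48 further genes the 2 lowest and 2 highest called in each line, 1 of which is not reported here. Other library values were chosen after they were seen. As alternatives, DESeq2 1.42.0 or limma-voom (limma 3.58.1) replaced edgeR, RLE factors or library size replaced TMM, the filter was dropped or set to a mean of 10 counts, expected counts stayed unrounded, the replicate number entered as a block, each library was left out, and interactions used 12 libraries.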

Additional observations from a re-analysis of the deposited data

Results flagged for a closer look

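The fall after siFLI1 differed between lines by the interaction test for 43 of 43 members when TC-32 was set against A673 (62.1% of all genes), for 40 when it was set against TC-71 (53.6%) and for 42 in the pair of A673 with TC-71 (51.6%). The difference of the log2 fold changes between TC-32 and A673 ran from -3.24 (CDC6) to -0.39 (RFC1). Between TC-32 and TC-71 it was lowest for RRM2, with -1.92, and highest for PRIM2, with 0.42. Between A673 and TC-71, among members past the threshold, it ran from 0.22 (RFC1) to 1.69 (UHRF1). Line and table cannot be told apart in any of these pairs. The counting tool also differs in both pairs with TC-71, and depth in both pairs with A673. No time is given for A673, so time may differ too in the pairs with A673.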

How the results depend on the processing

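Of 4048 values of the members and FLI1 under alternatives, 4012 kept their direction and their side of the threshold. Another 13 reversed, 8 passed the threshold that they had missed and 15 lost it. The members' median stayed within -2.91 to -2.83 for TC-32, -1.85 to -1.76 for TC-71 and -0.83 to -0.72 for A673. Library size alone moved the median of all A673 genes from -0.0066 to -0.11. With it, 5 other replication genes were higher in TC-32 (3 otherwise) and 2 in A673 (5 otherwise), both MCM8 and UHRF1 were lower in A673 (2 in place of 1), UHRF1 had -0.0978 in A673, and POLE differed between TC-32 and TC-71 by 0.0369. Of the cell cycle genes, 1 to 2 were higher in TC-32 when single libraries were left out.

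The value of PRIM2 in A673 turned to 0.0011 with DESeq2, 0.0048 with RLE factors and 0.0030 with a mean of at least 10 counts. Leaving out single A673 libraries gave -0.0283 to 0.0449, above 0 without siNeg replicate 2 (0.0173) or siFLI1 replicate 2. UHRF1 in A673 turned to -0.0024 without a filter, and ranged from -0.0104, without siFLI1 replicate 2, to 0.0266 when single libraries were left out. POLE between TC-32 and TC-71 turned to 0.0426 with DESeq2, 0.0446 with RLE factors and 0.0032 with the 12 libraries alone, and ranged from -0.0629 to 0.0129 (without TC-71 siFLI1 replicate 1) when single libraries were left out. The cause was not tested.

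The replicate numbers did not pair the libraries, with correlations of same-numbered deviations from -0.078 to 0.042. With the replicate block, the medians of the 3 lines were -2.88, -1.79 and -0.73, in the same order, and the counts of members called were the same. At these depths the lowest member count, 37 for POLE2 in TC-32, limits the precision of that gene.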
